A study of Rattus norvegicus with 2 samples.

Results

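Leukocyte adhesion molecules were followed as 9 genes, Sele, Selp, Icam1, Icam2, Vcam1, Alcam, Mcam, Jam2 and Cd44, chosen by gene symbol from a fixed list. All 9 were among the 32623 listed genes. Single-cell RNA was read from carotid arteries of male SD rats in 2 libraries prepared on the 10x Genomics platform. The control library held left arteries without treatment, and the case library held right arteries taken 28 days after balloon injury. Both libraries pooled arteries of the same 2 rats. The animals were 8 weeks old at the start and are 12 weeks old in the labels. The arteries were dissociated with enzymes, so every cell had lost its contacts before the RNA was read. Each group is a single library, so the values carry no replicate error and no test was run. The intervals given below cover counting error only.

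Leukocytes leave the blood in steps. Selectins on activated endothelium catch rolling cells, members of the immunoglobulin family such as Vcam1 and the Icams then bind leukocyte integrins firmly, and junction proteins guide passage between endothelial cells. Sele and Vcam1 are classically induced by inflammatory cytokines through NF-kB, whereas Selp is stored in Weibel-Palade bodies and Icam2 is present on resting endothelium. Cd44 binds hyaluronan and is found on many migrating cells, Alcam binds Cd6 on T cells, and Mcam, also called Cd146, is known from endothelium, pericytes and smooth muscle.

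The control library held 3321 barcodes and 24968329 UMIs (unique molecular identifiers, 1 for each captured RNA molecule), and the case library 5656 barcodes and 28232614 UMIs. After filtering, 2742 control and 4930 case cells remained, with medians of 8880 and 5156 UMIs per cell. Cells were placed in classes, which are named after those markers and here called endothelial-like and so on, by the share of their UMIs in marker genes, none of which is an adhesion molecule studied here. Smooth muscle-like cells numbered 1571 in the control and 2692 in the case library, and fibroblast-like cells 726 and 1282. Endothelial-like cells numbered 58 and 254, macrophage-like cells 45 and 113, and Schwann-like cells 21 and 55. Endothelial markers summed to 2817 and 2916 UMIs per 1000000 (CPM) in endothelial-like cells and to between 0 and 40.1 CPM in the other 4 classes, but the class was chosen by these same markers. Pecam1 was not among the listed genes. Only 1 control and 4 case cells passed as T cell-like, too few to describe. Barcode sequences shared by both libraries numbered 21, and leaving them out moved no ratio beyond its interval.

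Each of the 9 molecules had its own distribution over the classes. Sele, Selp and Icam2 were highest in endothelial-like cells. In the other classes Sele and Selp stood at 0.69 CPM or less and Icam2 at 20.4 CPM or less. Mcam lay mainly in smooth muscle-like cells, and Cd44 was highest in Schwann-like and macrophage-like cells. Between the libraries, Cd44 was more than 2-fold higher in the case library in smooth muscle-like and fibroblast-like cells, Icam2 was 4.04-fold lower in endothelial-like cells, and Sele was 4.26-fold higher there. The Sele value rested on 4 control UMIs and did not reach 2-fold as a mean over cells. Icam1 and Selp differed little in endothelial-like cells.

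A gene was called when its level differed 2-fold or more between the libraries, among genes with at least 20 UMIs over both libraries in a class. In smooth muscle-like cells 1 of 6 members was called higher, against 2.9% of all genes, and 0 lower, against 4.38%. In fibroblast-like cells 1 of 6 was called higher, where 3.55% of all genes were, and 0 lower, where 5% were. In endothelial-like cells 1 of 9 was called higher and 1 of 9 lower, beside 9.94% and 13.7% of all genes, so the members' share was near that of all genes. In macrophage-like cells 1 of 4 was called higher (background 8.58%) and 0 lower (background 5.52%). In Schwann-like cells 1 of 4 was called higher (background 14.5%) and 0 lower (background 9.33%). The median log2 ratio of the members was -0.06 in smooth muscle-like cells, -0.15 in fibroblast-like cells and -0.18 in endothelial-like cells. Over all tested genes of those classes it was -0.13, -0.10 and -0.15, which is the shift that the ratios below carry. In macrophage-like cells the members' median was 0.29 beside 0.05 for all genes, and in Schwann-like cells 0.13 beside 0.02.

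**Figure D1:**
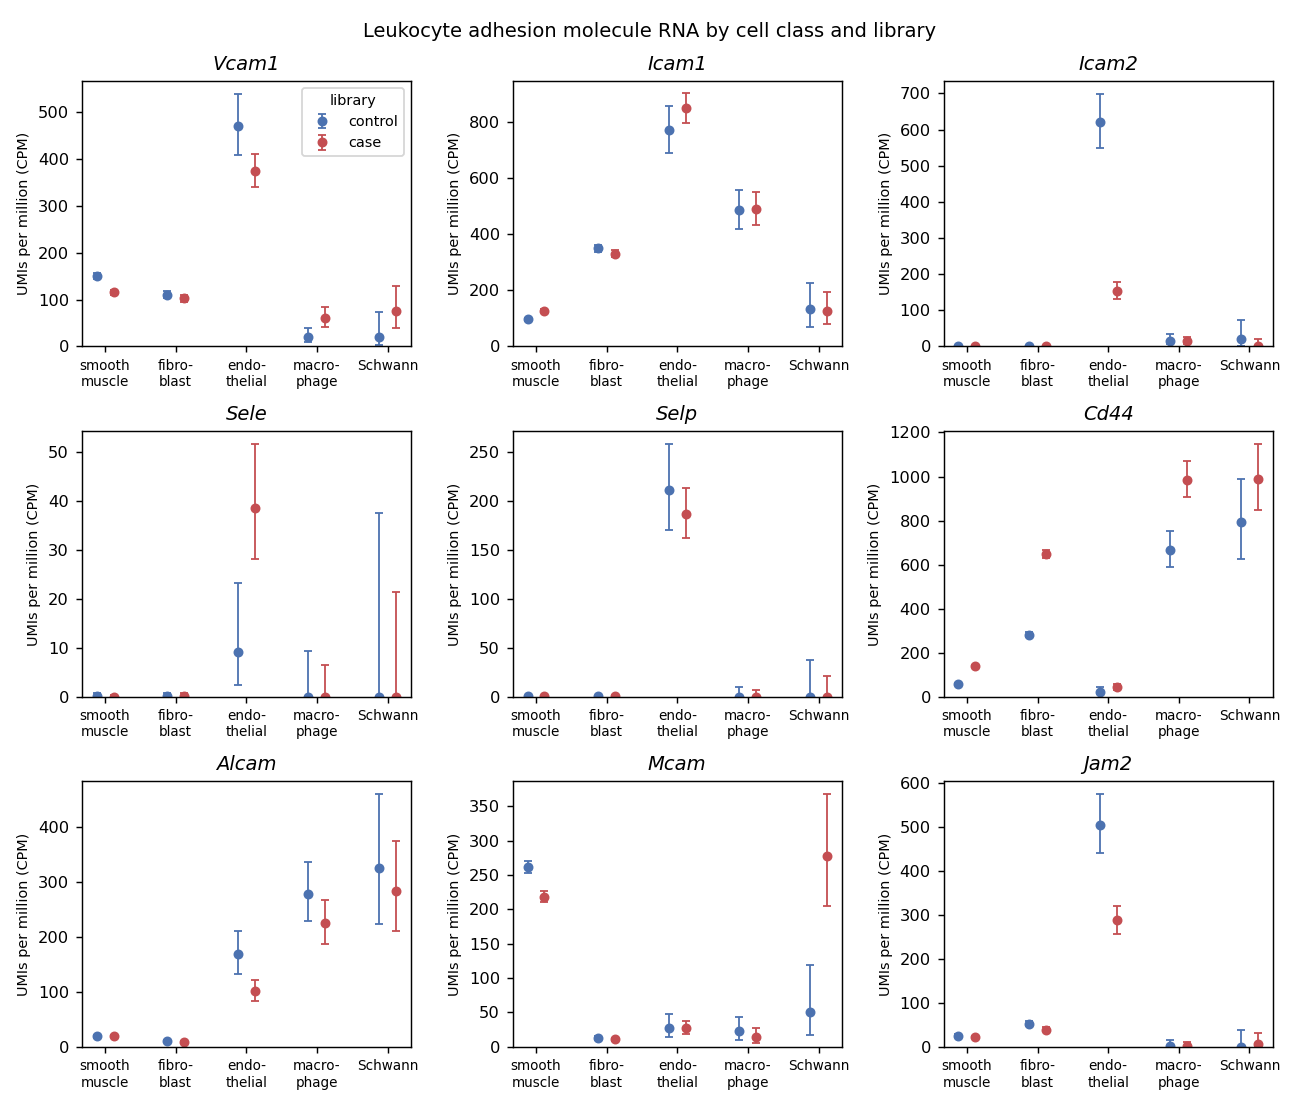
UMIs per 1000000 (CPM, linear axes that start at 0 and differ between panels) of each adhesion molecule in 5 cell classes, control library in blue and case library in red. Points are the sum over all cells of a class and bars are exact 95% Poisson intervals. The points of Icam2, Sele and Selp are close to 0 on their axes outside endothelial-like cells, while bars of classes with few cells reach higher.

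**Figure D2:**
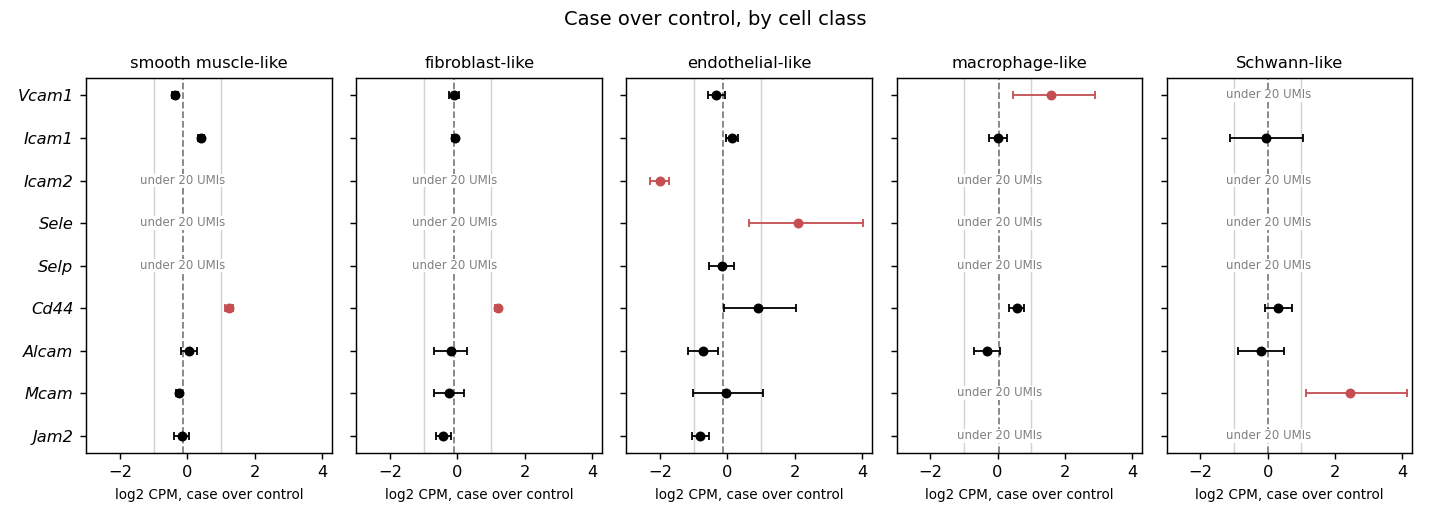
Log2 ratio of case over control CPM for each adhesion molecule in 5 cell classes, with bars for the 95% interval of counting error and red points for ratios of 2-fold or more. The dashed line is the median of all tested genes in the class, the grey lines mark 2-fold, and Cd44 is to the right of the dashed line in every class.

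Sele encodes E-selectin, which appears on endothelium after cytokine stimulation. Of 8 UMIs in the kept control cells 4 came from endothelial-like cells, and of 65 in the kept case cells 45 did. The level in endothelial-like cells was 9.07 CPM in the control (95% interval 2.47 to 23.2, 3 of 58 cells with a UMI) and 38.7 CPM in the case library (28.2 to 51.8, 22 of 254 cells). The log2 ratio was 2.09 (0.64 to 4.03), and the intervals of the levels did not overlap. It rested on 4 control UMIs, and as a mean over cells it was 0.73. After each cell was thinned to 1000 UMIs, Sele was found in 0 of 57 control cells (Clopper-Pearson interval up to 6.27%) and 9 of 254 case cells (3.54%), a difference not detectable at that depth. Macrophage-like cells held 0 UMIs in both libraries, with intervals up to 9.40 CPM in the control and 6.42 CPM in the case library. The control limit was above the control endothelial level. Schwann-like cells also held 0, and their control interval reached 37.5 CPM, likewise above the control endothelial level.

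Most case cells with Sele held Plvap or Emcn, genes of venous and capillary endothelium. Plvap, the diaphragm protein of fenestrated and venous capillaries, and Emcn, a venous and capillary sialomucin, were used to split the class. Emcn is also one of the 8 markers of the class. A UMI of either was present in 12 of 58 control and 106 of 254 case cells. Of these, 0 control and 31 case cells also held a lymphatic endothelial marker (Prox1, Lyve1, Flt4 or Pdpn). The make-up of this side may thus differ between the libraries. In the case library 42 of 45 Sele UMIs lay in cells with Plvap or Emcn, where the level was 89.9 CPM (64.8 to 121) against 4.31 CPM (0.89 to 12.6) in the remaining cells. In the control library the levels on the same sides were 22.9 CPM (2.78 to 82.8) and 5.65 CPM (0.68 to 20.4), each from 2 UMIs. Clusters made without the 9 genes also separated a Plvap-rich endothelial-like cluster, with 10 control and 157 case cells. Within it Sele stood at 54.3 CPM in the control (14.8 to 139) and 85.1 CPM in the case library (65.3 to 109), which overlapped. The share of such cells was larger in the case library, as was the Sele level of the class, and the part of the former in the latter was not tested.

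Selp, the gene of P-selectin, was also endothelial, and its level was near-equal in both libraries. It reached 211 CPM (170 to 258) in control and 187 CPM (163 to 213) in case endothelial-like cells, with a log2 ratio of -0.18 (-0.53 to 0.19). In smooth muscle-like and fibroblast-like cells it stood between 0.15 and 0.69 CPM, and Schwann-like and macrophage-like cells held 0 UMIs. On the Plvap and Emcn split of case cells Selp was present on both sides, at 204 CPM (172 to 240) without and 160 CPM (126 to 201) with these markers. In the clusters made without the 9 genes Selp was lower in the Plvap-rich one, at 13.6 CPM (0.34 to 75.7, 1 UMI) in the control and 111 CPM (88.3 to 138) in the case library. The Vwf-rich endothelial-like cluster had 218 CPM (177 to 265) and 225 CPM (194 to 260). Platelets also carry P-selectin, and the 5 platelet genes checked summed to 0 UMIs in control and 3 UMIs in case endothelial-like cells. Of the 22 case cells with Sele 11 also held a Selp UMI, compared with 78 of 232 case cells without Sele.

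Icam2 is the constitutive ligand of the leukocyte integrin LFA-1. Endothelial-like cells gave 274 of 299 UMIs in the control and 179 of 222 in the case library. Its level was 621 CPM (550 to 699) in the control and 154 CPM (132 to 178) in the case library, a log2 ratio of -2.01 (-2.29 to -1.74), or -1.87 relative to the median of all tested genes. A UMI was found in 46 of 58 control cells and 86 of 254 case cells, and after thinning in 47.4% and 10.2%. The fall was present on both sides of the Plvap and Emcn split, from 712 to 218 CPM without these markers (log2 ratio -1.71, -2.01 to -1.41) and from 252 to 57.8 CPM with them (-2.13, -2.99 to -1.24). The control value with them came from 22 UMIs in 5 of 12 cells. In the clusters made without the 9 genes the fall was seen in the Vwf-rich endothelial-like cluster, from 627 to 216 CPM. The Plvap-rich cluster showed no fall. Icam2 was low there in both libraries, at 13.6 CPM (0.34 to 75.7, 1 UMI) in the control and 24.7 CPM (14.7 to 39.1) in the case library. The control value of 252 CPM on the split was thus not seen in this cluster. Depth differed between the libraries, with median UMIs of 6982 in control and 3914 in case endothelial-like cells.

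The case endothelial-like cells also held more RNA of lymphatic endothelial genes. Prox1, Lyve1, Flt4 and Pdpn summed to 7 UMIs (15.9 CPM) in the control and 168 UMIs (144 CPM) in the case library, with Lyve1 and Pdpn at 0 in the control. The same 4 genes summed to 1071 and 1207 CPM in macrophage-like cells and to 44.9 and 67.8 CPM in fibroblast-like cells, so they were not particular to endothelium here. Any of them was found in 7 control and 54 case endothelial-like cells, and Prox1 in 2 and 26 of these. Without these 7 and 54 cells, the Icam2 log2 ratio was -1.88 and the Sele ratio 1.97.

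Jam2, a junctional adhesion molecule of endothelium, was highest in endothelial-like cells and lower in the case library without reaching 2-fold. It was 503 CPM (439 to 574) in the control and 287 CPM (257 to 320) in the case library, a log2 ratio of -0.81 (-1.06 to -0.56). Fibroblast-like cells followed with 52.2 and 39.1 CPM (log2 ratio -0.42, -0.64 to -0.20), then smooth muscle-like cells with 25.2 and 22.5 CPM. The intervals of neighbouring classes in this order, down to smooth muscle-like cells, did not overlap. Macrophage-like cells held 1 UMI per library. Schwann-like cells held 0 UMIs in the control and 1 in the case library. Their intervals, up to 37.5 and 32.2 CPM, reached above the smooth muscle-like levels. On the split of endothelial-like cells Jam2 was higher without Plvap and Emcn in both libraries, at 546 against 332 CPM in the control and 366 against 169 CPM in the case library.

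**Figure D3:**
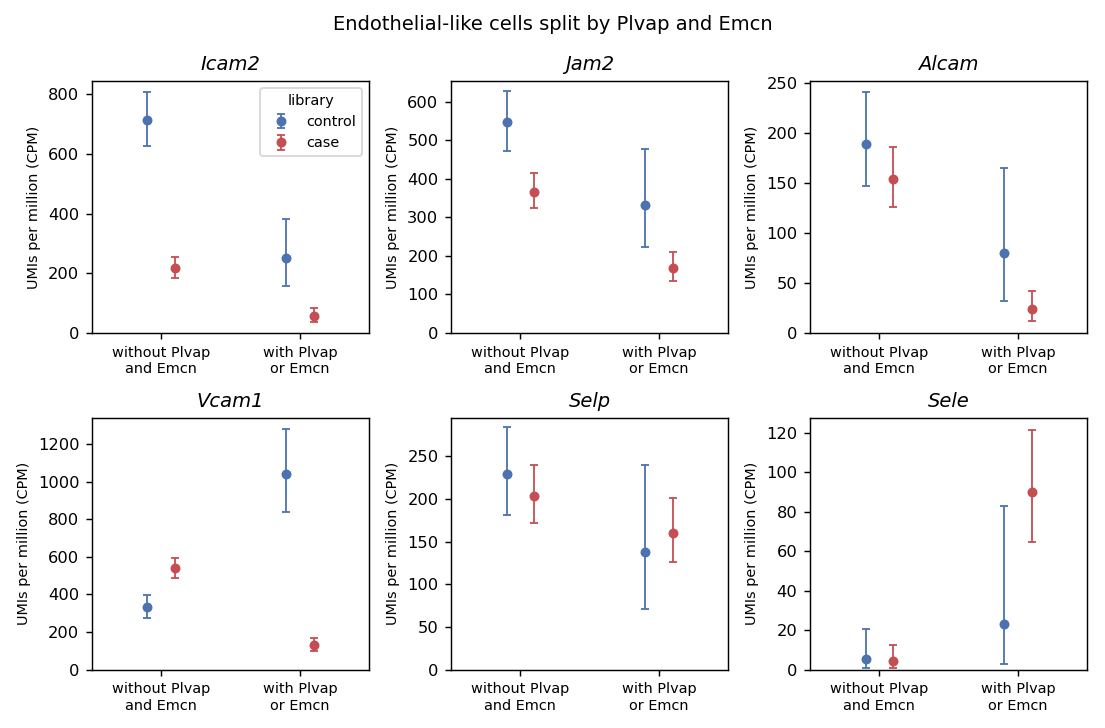
UMIs per 1000000 (CPM, linear axes from 0) of 6 adhesion molecules in endothelial-like cells without Plvap and Emcn (46 control, 148 case cells) and with either (12 control, 106 case cells), blue for control and red for case. Points are sums over cells with exact 95% Poisson intervals, and Icam2 is lower in the case library on both sides while Sele is near 0 in cells without these markers. The control Icam2 value with these markers came from 22 UMIs in 5 of 12 cells.

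Vcam1, the ligand of the integrin VLA-4, was not restricted to endothelium. Endothelial-like cells had the highest level, 472 CPM (410 to 540) in the control and 375 CPM (340 to 412) in the case library. Smooth muscle-like cells had 150 and 115 CPM, and fibroblast-like cells 111 and 103 CPM. The intervals of these last classes overlapped in the case library and not in the control. Schwann-like cells had 2 UMIs in the control and 13 in the case library, too few for a ratio. Because of their number, smooth muscle-like cells gave 58.1% of Vcam1 UMIs in the control and 51.1% in the case library. The log2 ratio was -0.33 (-0.57 to -0.09) in endothelial-like cells, -0.37 (-0.47 to -0.28) in smooth muscle-like cells and -0.11 (-0.25 to 0.03) in fibroblast-like cells.

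The endothelial value of Vcam1 was carried by very few control cells. A pair of control cells held 69 and 55 of the 208 UMIs, and without the 2 highest cells of each library the log2 ratio was 0.65. It was 0.17 without the cells that held a lymphatic marker. In case cells Vcam1 was 539 CPM (486 to 596) without Plvap and Emcn and 131 CPM (99.8 to 168) with them. In the control it was 331 CPM (274 to 396) and 1043 CPM (839 to 1280), the latter from 7 of 12 cells. These sides held 117 and 91 UMIs, so each included 1 of the 2 highest control cells. The clusters made without the 9 genes did not show the control value of 1043 CPM. In the Plvap-rich cluster Vcam1 was 40.7 CPM (8.40 to 119, 3 UMIs) in the control and 85.1 CPM (65.3 to 109) in the case library, and in the Vwf-rich cluster 475 CPM (414 to 543) and 492 CPM (446 to 543).

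Within the wall, Vcam1 followed other marker genes. Smooth muscle-like cells with 5 or more UMIs of Spp1 (osteopontin) per 10000 had 310 CPM of Vcam1 (289 to 332) in the control, against 111 CPM (105 to 117) below that limit. In the case library these levels were 207 CPM (191 to 225) and 95.6 CPM (90.2 to 101). Among fibroblast-like cells, those with 2 or more UMIs per 10000 of Pi16, an adventitial fibroblast gene that is also a marker of the class, had less Vcam1. They had 84.3 CPM against 251 CPM in the control and 64.0 CPM against 147 CPM in the case library.

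In macrophage-like cells Vcam1 was called, at 20.4 CPM (8 UMIs) in the control and 61.0 CPM (35 UMIs) in the case library, a log2 ratio of 1.58 (0.45 to 2.90). However, 32 of the 35 case UMIs came from 2 of 113 cells, and 4 of the 8 control UMIs from 2 cells. Without the 2 highest cells of each library the log2 ratio was -1.03. That value came from fewer than the 20 UMIs required for a call and gives no direction.

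The 5′ flanks of these genes are shown because NF-kB is the textbook inducer of Vcam1, Icam1 and Sele. RefSeq promoter sequences of the GRCr8 build, with 250 bases before and 50 after the gene start, were at hand for 6 of the 9 genes (Vcam1, Icam1, Cd44, Alcam, Jam2 and Sele). The NF-kB consensus GGGRNNYYCC (R for A or G, Y for C or T, N for any base) was searched on both strands. It occurred in 3 of these 6 windows and in 7.51% of 33469 windows of the same length. The windows of Icam1, Sele and Cd44 held no match. Sites that differ from these letters were not searched. Matches are in capitals below, and Icam1 is printed without one for comparison.
Vcam1, chr2:206742807-206742936, minus strand: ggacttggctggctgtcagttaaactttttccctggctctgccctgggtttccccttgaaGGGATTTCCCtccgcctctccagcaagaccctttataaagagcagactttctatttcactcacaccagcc
Jam2, chr11:37317428-37317557, plus strand: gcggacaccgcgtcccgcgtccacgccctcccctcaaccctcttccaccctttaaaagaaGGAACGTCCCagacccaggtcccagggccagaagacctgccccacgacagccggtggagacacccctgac
Alcam, chr11:61805207-61805310, plus strand: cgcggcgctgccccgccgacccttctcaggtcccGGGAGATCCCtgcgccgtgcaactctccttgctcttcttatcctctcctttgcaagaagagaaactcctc
Icam1, chr8:27829715-27829844, plus strand: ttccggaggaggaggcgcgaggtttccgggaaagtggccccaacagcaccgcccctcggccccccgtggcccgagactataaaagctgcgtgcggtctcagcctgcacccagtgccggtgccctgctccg
The match began 93 bases before the start in Vcam1, 72 in Jam2 and 216 in Alcam, and in Jam2 it was on the strand opposite the gene. The letters TATAAA on the strand of the gene, present in 8.80% of all windows, occurred 60 bases before the start in Vcam1 and 53 in Icam1. These matches describe letters only, and their use by a factor was not tested.

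Icam1, which binds LFA-1 and Mac-1 on leukocytes, was found in every class. In endothelial-like cells it was 769 CPM (689 to 855) in the control and 849 CPM (796 to 903) in the case library, a log2 ratio of 0.14 (-0.04 to 0.32). Macrophage-like cells followed with 484 and 489 CPM and fibroblast-like cells with 350 and 330 CPM. Schwann-like cells (132 and 127 CPM) and smooth muscle-like cells (96.1 and 128 CPM) came last, and their intervals overlapped. The log2 ratio was 0.41 (0.31 to 0.51) in smooth muscle-like cells, and 0.16 as a mean over cells.

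The near-equal endothelial totals of Icam1 hid opposite values on the Plvap and Emcn split. Cells without these markers had 495 CPM (424 to 574) in the control and 913 CPM (843 to 986) in the case library, a log2 ratio of 0.88 (0.64 to 1.13). Cells with either had 1879 CPM (1602 to 2190) and 753 CPM (677 to 836), a log2 ratio of -1.32 (-1.59 to -1.04), where the control value came from 12 cells. Among case fibroblast-like cells Icam1 was lower in those with 2 or more UMIs per 10000 of Postn (periostin, a matrix protein of activated fibroblasts), at 157 CPM (136 to 180) against 368 CPM (353 to 384).

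Vcam1, Icam1, Sele and Selp, the 4 molecules induced or displayed upon activation, were counted together in single endothelial-like cells. All 4 had a UMI in 0 of 58 control cells and 5 of 254 case cells. At least 1 of them was found in all but 3 control cells and 41 case cells. The number with all 4 cannot exceed the 3 control and 22 case cells with Sele, and these counts depend on depth, which was lower in the case library.

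Alcam was highest in Schwann-like cells (326 CPM in the control, 283 CPM in the case library) and macrophage-like cells (278 and 225 CPM), whose intervals overlapped. Endothelial-like cells had 168 CPM (132 to 211) and 101 CPM (84.0 to 121), a log2 ratio of -0.73 (-1.16 to -0.29), and smooth muscle-like and fibroblast-like cells stayed between 8.73 and 19.3 CPM. Like Jam2 and Icam2, Alcam was higher in endothelial-like cells without Plvap and Emcn, at 189 against 80.2 CPM in the control and 154 against 23.5 CPM in the case library.

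Most Mcam UMIs came from smooth muscle-like cells. Smooth muscle-like cells gave 92.5% of its UMIs in the control and 89.7% in the case library, with 261 CPM (253 to 270) and 219 CPM (211 to 226) and a log2 ratio of -0.26 (-0.33 to -0.19). Relative to the median of all tested genes this was -0.12. In endothelial-like cells, where Mcam is also known from other vessels, it was 27.2 CPM (12 UMIs) and 26.7 CPM (31 UMIs). Smooth muscle markers summed there to 1463 and 1161 CPM, against 25630 and 20465 CPM in smooth muscle-like cells, and 5 pericyte genes summed there to 288 and 80.8 CPM. Their part in the Mcam values was not tested.

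Schwann-like cells had 50.9 CPM of Mcam (16.5 to 119, 5 UMIs in 4 of 21 cells) in the control and 278 CPM (205 to 368, 48 UMIs in 20 of 55 cells) in the case library. The log2 ratio was 2.45 (1.13 to 4.13), with 19 of the 48 case UMIs in a single cell. In the case library this level was above that of smooth muscle-like cells, and their intervals overlapped. Fibroblast markers in these cells summed to 1913 CPM in the control and 5351 CPM in the case library, and smooth muscle markers to 1394 and 1180 CPM. The part of either in the Mcam value was not tested.

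Cd44, the hyaluronan receptor, was higher in the case library in all 5 classes and passed 2-fold in 2 of them. In smooth muscle-like cells it rose from 58.8 CPM (54.8 to 63.0) to 139 CPM (133 to 145), 2.36-fold, with a log2 ratio of 1.24 (1.12 to 1.36) or 1.38 relative to the median of all tested genes. In fibroblast-like cells it rose from 282 CPM (270 to 294) to 647 CPM (629 to 666), 2.30-fold, with a log2 ratio of 1.20 (1.13 to 1.27) or 1.30 relative to the median. The intervals of the levels did not overlap in either class, and 98.2% of tested genes in smooth muscle-like cells and 97.6% in fibroblast-like cells had a lower ratio. After thinning, the share of cells with a Cd44 UMI was 4.96% and 11.5% in smooth muscle-like cells and 19.4% and 36.0% in fibroblast-like cells.

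The remaining classes did not reach 2-fold. Macrophage-like cells had 665 CPM (587 to 751) and 986 CPM (906 to 1070), a log2 ratio of 0.57 (0.35 to 0.78). Schwann-like cells had 794 CPM (627 to 991) and 989 CPM (847 to 1149), with overlapping intervals. Endothelial-like cells had 22.7 CPM (10 UMIs) and 42.1 CPM (49 UMIs), a log2 ratio of 0.89 (-0.11 to 2.04). It was 2.15 (0.69 to 4.09) without the cells that held a lymphatic marker, from 4 control UMIs. Without the 2 highest cells of each library, which held 8 of the 10 control UMIs, it was 2.57.

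Smooth muscle-like cells of the libraries fell into different clusters. Of the control cells 50.7% were in a cluster led by Igfbp2 and Acta2, whereas 47.1% and 40.6% of the case cells were in clusters led by Fos and by Nav2. These clusters had median depths of 13342, 5171 and 5561 UMIs. A further 15.0% and 16.6% of the control cells were in unnamed clusters with medians of 1514.5 and 487.5 UMIs. The clustering made no correction between libraries, and the part of depth was not tested. Among fibroblast-like cells a cluster led by Il6 and C7 held 74.0% of control and 42.5% of case cells, and a cluster led by Cilp and Has2 held 16.8% and 48.4%. Over all control and case cells of a cluster, Cd44 was 57.8 and 103 CPM (Igfbp2 and Acta2), 27.8 and 80.2 CPM (Fos) and 108 and 197 CPM (Nav2). It was 259 and 485 CPM in the Il6 and C7 cluster and 383 and 797 CPM in the Cilp and Has2 cluster. The part of cluster make-up in the class ratios was not tested. Markers of macrophages in smooth muscle-like cells summed to 10.0 and 13.0 CPM, and in fibroblast-like cells to 9.75 and 14.4 CPM, and their part in the Cd44 value was not tested.

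Cd44 was graded along other genes in both libraries. Fibroblast-like cells were divided by Gfpt2, an enzyme of the hexosamine pathway that feeds hyaluronan synthesis. Cd44 was 173 CPM (156 to 191) with under 2 UMIs of Gfpt2 per 10000, 265 CPM (247 to 285) with 2 to 20 and 375 CPM (354 to 397) with 20 or more in the control. In the case library the same steps had 314 CPM (289 to 341), 588 CPM (559 to 618) and 934 CPM (897 to 971). Each step of the case library was above the same step of the control. Depth also rose along Gfpt2, from a median of 7816 to 14925 UMIs in the control and from 4126 to 6645 UMIs in the case library.

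Case fibroblast-like cells with 2 or more UMIs per 10000 of Postn had 967 CPM of Cd44 (914 to 1022), against 578 CPM (558 to 597) below that limit. In the control only 15 of 726 fibroblast-like cells passed this limit, and they had 373 CPM (273 to 497). Smooth muscle-like cells with 1 or more UMIs per 10000 of Notch1 had more Cd44 than the rest, at 84.6 against 50.7 CPM in the control and 200 against 115 CPM in the case library. These control cells were also deeper, with a median of 13786 against 7965 UMIs.

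Cells that carried the markers of smooth muscle and of fibroblasts at once numbered 138 in the control and 81 in the case library and were kept apart from the 5 classes. Here 2 of 6 members were called higher, against 3.57% of all genes, and 0 lower, against 7.37%. Cd44 was 142 CPM (115 to 173) in the control and 405 CPM (359 to 455) in the case library, a log2 ratio of 1.52 (1.18 to 1.86). Alcam was called from 6 and 15 UMIs, and its log2 ratio of 1.31 had an interval that included no change (-0.14 to 2.96). Their median depth was 1416 UMIs in the control and 8517 UMIs in the case library, the reverse of the order in the 5 classes, and its part in these values was not tested.

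**Figure D4:**
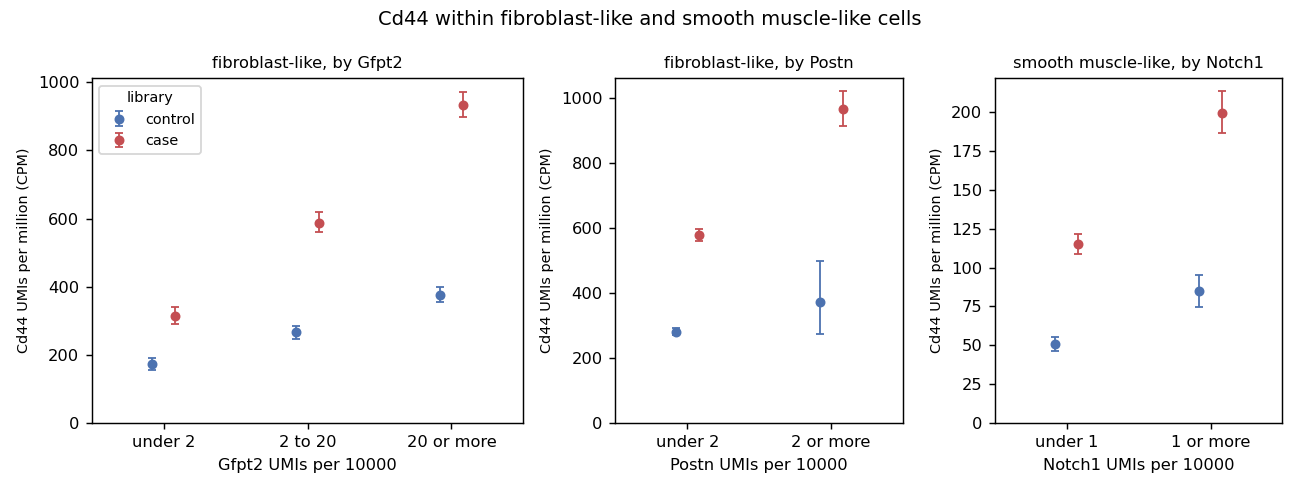
Cd44 UMIs per 1000000 (CPM, linear axes from 0) in fibroblast-like cells by Gfpt2 and by Postn and in smooth muscle-like cells by Notch1, blue for control and red for case. Points are sums over cells with exact 95% Poisson intervals, and the case value is above the control value at every step.

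Other genes of leukocyte adhesion were taken from a list of 51, of which 50 were listed in the files. In endothelial-like cells 30 had enough UMIs, and 6 were called higher and 3 lower in the case library, beside 9.94% and 13.7% of all tested genes. The share of lower genes was thus not above the background. Those higher were the chemokines Ccl2 (99.8 to 830 CPM, log2 ratio 3.06, 2.62 to 3.53) and Cxcl12, the integrin chain Itgav, the TNF receptor Tnfrsf1a, and Nfkb2 and Tnfaip3 of the NF-kB pathway. Cxcl12, Itgav, Nfkb2 and Tnfaip3 had between 1 and 4 control UMIs. Those lower were the junction genes Cldn5 (388 to 145 CPM, log2 ratio -1.42, -1.73 to -1.10) and F11r (222 to 88.5 CPM, -1.33, -1.74 to -0.91) and the hyaluronidase Hyal2. Cldn5 is also one of the endothelial markers. The median of the 30 was -0.26, beside -0.15 for all tested genes.

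In fibroblast-like cells 0 of 30 were called higher and 3 lower, beside 3.55% and 5% of all tested genes. The lower genes were the neutrophil chemokine Cxcl1 (3617 to 1506 CPM), Nfkb2 and Tnfaip3. In smooth muscle-like cells 3 of 35 were called higher and 0 lower, beside 2.9% and 4.38% of all tested genes. These 3 were the hyaluronan synthase Has1 (5.41 to 13.1 CPM), Il1r1 and Cdh5. Cdh5 is also one of the 8 endothelial markers, which together had only 32 control and 68 case UMIs in smooth muscle-like cells. In macrophage-like cells 5 of 21 were called higher and 0 lower, beside 8.58% and 5.52% of all tested genes. The higher genes were the integrin chains Itgb2 (96.9 to 258 CPM) and Itga4, Spn, Pvr and the cytokine Il1b. In Schwann-like cells 1 of 11 was called higher, Cav1, and 2 lower, Ccl2 and Cxcl1, beside 14.5% and 9.33% of all tested genes.

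The genes closest in pattern were sought over 12 combinations of class and library, by Pearson correlation of log2(CPM + 10) among 3018 genes with 100 CPM or more in any of them. These points share libraries and depth, so r is a description. Selp was closest to Mmrn2, Vwf and Pkhd1l1, Sele to AABR07005821.1, Adgrl4 and Emcn, Icam2 to Tspan8, Rab11a and F11r, and Jam2 to Cgnl1, Sox7 and Sulf1, with r between 0.96 and 1.00. Vwf and Emcn are also markers by which the endothelial class was chosen, and Emcn was used for its split. Cd44 was closest to Runx1 (r = 0.92), Zeb2 (0.91) and LOC498750 (0.89), and Mcam to Itga7 (0.94), Atp5pd and Col18a1. Vcam1 was closest to Sulf1 (0.95), Bmpr2 and Tmem205, Icam1 to MGC105649 (0.98), Plac8 and Lmo2, and Alcam to Notch1 (0.97), Fkbp1a and Tmem176b.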

How the data were processed

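Samples were 1 control and 1 case library of rat carotid artery cells. The values deposited by the authors are raw UMI counts for each pair of gene and barcode. The submitters' processing notes name Cell Ranger 3.1.0, Rnor_6.0 and Seurat. Barcodes were assigned to libraries by suffix, from the barcode numbers the study states, and 0 columns were left unmapped. Filters removed barcodes with over 20% mitochondrial UMIs, with log10 UMIs or genes more than 2 SD from the mean of their library, or more than 3 robust SD off the line of genes on UMIs. A class required a share of a cell's UMIs in its markers and a number of different markers: 0.5% and 3 for smooth muscle, 1.5% and 3 for fibroblasts, 0.05% and 2 for endothelium, 0.1% and 2 for macrophages and Schwann cells, and 0.01% and 2 for T cells. The cuts were set on marker shares after the data had been seen. In the case library 142 fibroblast-like and 48 smooth muscle-like cells lay within 1.25 times their cut, and 4 or fewer in each of the other classes. Cells past several cuts or none stayed apart. Cell depth ranged from 342 to 38579 UMIs in the control and from 501 to 29229 in the case library.

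Counts were summed over cells and given as CPM (per 1000000 UMIs) with exact 95% Poisson intervals. Ratios have exact conditional binomial intervals and shares Clopper-Pearson intervals. These intervals cover counting error only, and cells are not replicates. The members and lists were chosen with earlier results of these data known. All 9 members are described, and other adhesion genes were named where their ratio was 2-fold or more. The ratios, their intervals and the search for genes closest in pattern were tested on simulated Poisson sums of a class. That simulation left out UMIs gathered in few cells, so it cannot show how the intervals hold there. Clusters were made with scanpy 1.11.5 (2000 variable genes, the members left out, 30 components, 20 neighbours, Leiden resolution 0.8), and clusters without enough leading markers stayed unnamed. Scrublet marked 6 control and 0 case cells, so it had not worked, and doublets were left in. Python 3.11.15, numpy 2.4.6, scipy 1.17.1, R 4.3.3 and edgeR 4.0.16 (TMM factors only) were used. Alternatives numbered 12, of which 4 were added after seeing the data.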

Additional observations from a re-analysis of the deposited data

Results flagged for a closer look

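Vcam1 and Mcam had opposite directions in different classes, and these differences were not tested. The log2 ratio of Vcam1 was 1.58 in macrophage-like cells and -0.37 in smooth muscle-like cells. However, 32 of the 35 case UMIs in macrophage-like cells came from 2 cells. Without the 2 highest cells of each library the ratio was -1.03, from under 20 UMIs, which is too few to give a direction. That of Mcam was 2.45 in Schwann-like cells and -0.26 in smooth muscle-like cells.

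Barcodes outside the classes and the filter, 761 in the control and 1175 in the case library, also held adhesion molecule RNA. Icam1, Cd44, Selp and Sele stood above the control level with intervals that did not overlap. The share of all genes that did so was not computed. In the case library these barcodes had 297 CPM of Icam1, 446 CPM of Cd44, 16.1 CPM of Selp and 6.24 CPM of Sele. Of the case Sele UMIs, 13 came from 2 kept cells that passed no cut. In the control library the same kind of barcodes had 213 CPM of Icam1, 159 CPM of Cd44, 5.12 CPM of Selp and 0 UMIs of Sele. Mcam was lower, at 227 CPM in the control and 135 CPM in the case library. The intervals overlapped for Vcam1 (196 and 168 CPM), Alcam (42.6 and 33.2 CPM), Jam2 (34.1 and 47.3 CPM) and Icam2 (8.53 and 8.54 CPM).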

How the results depend on the processing

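Over 12 alternatives, 328 ratios of 29 were recomputed, and 305 stayed within their interval, 22 moved beyond it and 1 called ratio changed sign. Removing the Scrublet doublets (6 control and 0 case cells) or the shared barcodes (19 and 9 kept cells) changed very few cells. Each left 29 of 29 ratios within their interval, and neither could say much about stability. The log2 ratio of Cd44 stayed between 1.13 and 1.38 in smooth muscle-like cells and between 1.15 and 1.28 in fibroblast-like cells, with the highest values, 1.38 and 1.28, under TMM scaling. Icam2 in endothelial-like cells stayed between -2.16 and -1.87 and Mcam in Schwann-like cells between 1.44 and 2.82. Sele in endothelial-like cells ranged from 0.73 as a mean over cells to 3.79 without the 2 highest cells, which held 3 of the 4 control UMIs. The called ratio that changed sign was Vcam1 in macrophage-like cells, -1.03 without the 2 highest cells, where under 20 UMIs were left. Among ratios under 2-fold, Vcam1 in endothelial-like cells changed from -0.33 to 0.65 without the 2 highest cells and to 0.17 without cells that held a lymphatic marker, and Mcam in fibroblast-like cells from -0.25 to 0.55 under Leiden clusters. The number of members called higher in endothelial-like cells was 2 in place of 1 under Leiden clusters, TMM scaling, without the 2 highest cells and without cells that held a lymphatic marker. The added member was Cd44, which was 2-fold or more in 5 of 12 alternatives and kept its sign in all 12. As a mean over cells the number stayed at 1, but the member called was Cd44 and no longer Sele. The number called higher was 0 in place of 1 in macrophage-like cells as a mean over cells and without the 2 highest cells, and 2 in place of 1 in Schwann-like cells under Leiden clusters. The share of all genes called was not recomputed for these settings. The cause was not tested. Thinning moved 69 of 90 shares of cells beyond their interval. No paired analysis was possible because both rats were pooled in each library. Depth limits Sele, and the 21 control Schwann-like and 45 control macrophage-like cells limit those classes. Levels were not recomputed under TMM scaling.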

Other observations

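A cluster led by Pcsk1 and Comp, with 101 control and 162 case cells, stayed unnamed because no marker list led it clearly. Of its cells 19 control and 47 case cells passed as smooth muscle-like, and 10 and 61 as fibroblast-like. The cluster had Vcam1, which took no part in the clustering, at 370 CPM (322 to 423) in the control and 396 CPM (357 to 439) in the case library. These levels were above those of smooth muscle-like and fibroblast-like cells in both libraries, classes that include some of its cells. Cd44 in the same cluster was 86.8 CPM (64.4 to 114) in the control and 245 CPM (214 to 279) in the case library, and Icam2 and Sele had 0 UMIs.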
